A study of Mus musculus with 30 samples.

Results

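The comparison set GFP-positive against GFP-negative mesenchymal cells of the inflamed mouse colon and covers 6 of the 30 libraries of the series, chosen by their labels, with every gene of the deposited table. Both groups came from C57BL/6 mice of the genotype ColVI-cre, Rosa mTmG, and every animal of both groups had colitis induced with dextran sodium sulfate (DSS), a polymer given in drinking water that injures the colonic lining. In ColVI-cre mice a collagen VI promoter directs Cre recombinase, and the reporter switches a cell and its descendants from membrane Tomato to membrane GFP once Cre has acted. GFP therefore records past or present Cre activity and not the present level of the driver. The 3 GFP-positive libraries were sorted for GFP, and the 3 GFP-negative libraries, called Tomato in the labels, hold the remaining sorted mesenchyme. Unsorted cells of the DSS colon (3 libraries) and the same sorted cells of the normal colon (6 libraries, same strain and genotype, no DSS) are used below for reference. The labels do not give ages, the dose of DSS or the days of treatment, and they do not say whether replicates are separate mice, so the p-values measure only the spread between these libraries, which may be technical.

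The mesenchyme below the gut epithelium is made of several fibroblast classes. Telocytes, large cells that lie directly under the epithelium, carry high Pdgfra and Foxl1 and secrete bone morphogenetic proteins (BMPs) and non-canonical Wnts, which act on differentiating epithelial cells. Cd34-positive fibroblasts and trophocytes lie deeper, around the crypt base, and secrete BMP antagonists and R-spondins, which sustain the stem cells. Fibroblasts of both kinds also make matrix, chemokines and complement proteins during inflammation.

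RNA was sequenced from the 3′ end, so a value follows the number of transcripts and is not scaled by gene length, and levels are compared here only within a gene. Values are read counts normalised and rounded by the authors, called normalised counts below. The value of 1 read was 0.974 to 1.33 normalised counts, which gives an estimated 2474000 to 3053000 reads per GFP-positive and 3013000 to 3371000 per GFP-negative library. The first principal component held 60.4% of the variance of the tested genes and separated the groups. The second held 13.8% and set GFP-negative library 1, at 41.69, apart from the other GFP-negative libraries, at -21.38 and -24.43. In these bulk libraries, fewer cells of a type and less RNA per cell cannot be told apart.

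Of 15964 genes, 12570 had a mean of at least 10 normalised counts in a group and were tested with limma on log2(value + 1), with Benjamini-Hochberg adjustment over all of them. A gene is called higher or lower in GFP-positive cells where its adjusted p is at most 0.05, and every fold change below is a log2 difference on that scale, GFP-positive minus GFP-negative, which understates the change of low genes. This held for 2152 genes (17.1%), of which 1033 were higher (8.22%) and 1119 lower (8.90%). Which side held more calls depended on the scaling: with libraries scaled to equal totals, 1203 genes were higher and 920 lower. The median difference over all tested genes was 0.01. The libraries of the groups did not overlap for 4218 genes (33.6%), with every GFP-positive library above in 17.1% and below in 16.5% of the tested genes. Without GFP-negative library 1, which stood apart, 2040 genes passed (1009 higher and 1031 lower), and without GFP-positive library 1 the count was 1431, with 608 higher and 823 lower. Without GFP-positive library 2, 654 genes were higher. The authors' deposited table has 308 genes at a false discovery rate of at most 0.05 (1.93%), 100 of them higher and 208 lower, and 304 of these also passed here. Protein-coding genes made up 975 of the higher and 1032 of the lower genes, and long intergenic noncoding RNAs 16 and 12.

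**Figure D1:**
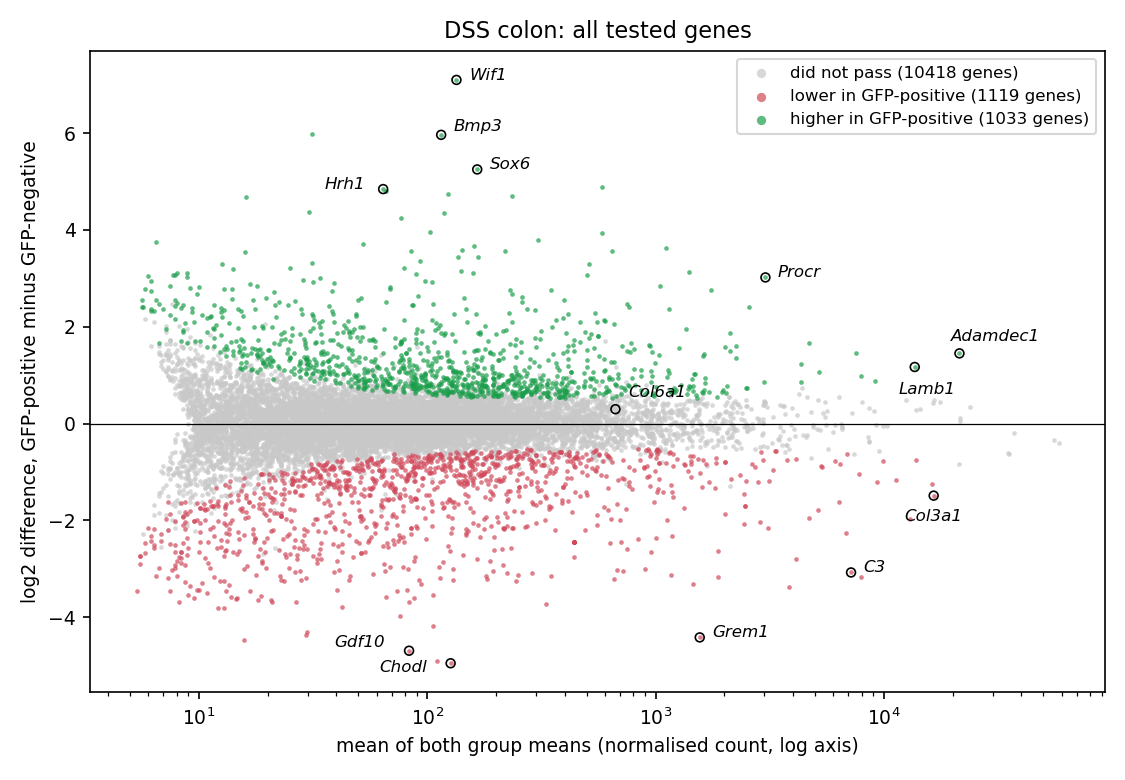
Each point is a tested gene of the DSS colon, placed by the mean of both group means (x axis, normalised counts, log axis) and by the log2 difference of GFP-positive minus GFP-negative cells (y axis); coloured points passed the test. The 1033 higher and 1119 lower genes lie on both sides of a median of 0.01. The circled genes were chosen for labelling and range from Wif1 at 7.10 to Chodl at -4.95. Among them Col6a1 (0.30) did not pass.

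The 5 markers named for this contrast were near the floor in 1 sort and present in every library of the other. Bmp3, a BMP family ligand (chromosome 5, 98854415 to 98884396 on mm10, plus strand), read 263, 194 and 225 normalised counts in the GFP-positive libraries and 1, 3 and 5 in the GFP-negative ones. Its log2 difference was 5.96 ± 0.37 (SE; adjusted p = 8.2e-08). Wif1, a secreted protein that binds Wnt ligands (chromosome 10, 121033960 to 121100650), read 209, 346 and 245 against 0, 0 and 6. This was the largest difference among the genes with a group mean of at least 50, 7.10 ± 0.64 (adjusted p = 1.8e-05). Hrh1, the H1 histamine receptor (chromosome 6, 114397936 to 114483296), read 145, 126 and 102 against 2, 2 and 8 (4.84 ± 0.41, adjusted p = 1e-06).

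The other two markers went the other way. Chodl, a membrane protein with a C-type lectin domain (chromosome 16, 78930948 to 78951733), read 200, 148 and 392 in the GFP-negative libraries and 4, 7 and 9 in the GFP-positive ones, a difference of -4.95 ± 0.36 (adjusted p = 3.2e-07). GFP-negative library 3 was the highest for Chodl and library 2 the lowest. Gdf10, another BMP family ligand (chromosome 14, 33923587 to 33935280), read 145, 199 and 140 in GFP-negative against 7, 5 and 4 in GFP-positive libraries (-4.69 ± 0.29, adjusted p = 8.2e-08). No GFP-positive library overlapped a GFP-negative library in any of these 5 given markers, which was also so for 33.6% of all tested genes. In the unsorted DSS colon, Bmp3 stood at 29, 20 and 41 and Gdf10 at 38, 19 and 18, between the levels of the sorts.

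**Figure D2:**
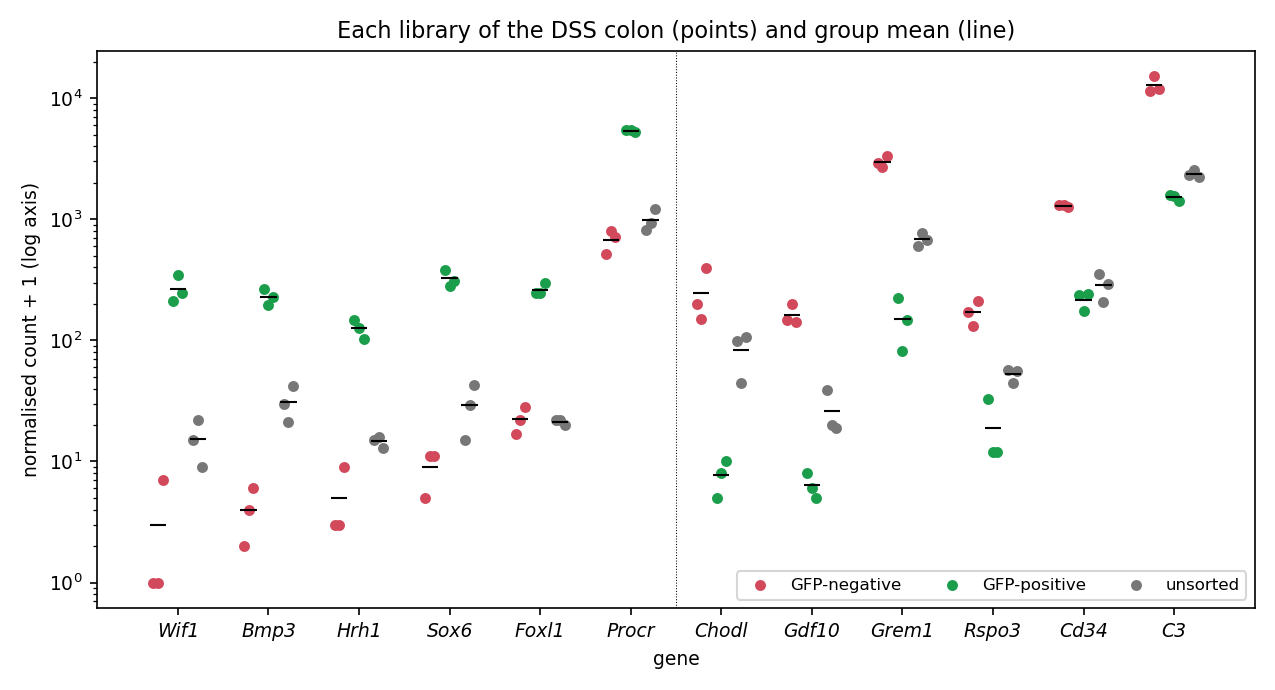
Normalised counts + 1 (y axis, log scale) of 12 genes (x axis) in each library of the DSS colon, with GFP-negative (red), GFP-positive (green) and unsorted (grey) libraries as points and lines at the group means. The GFP-positive and GFP-negative points do not overlap in the 12 chosen genes, as for Bmp3 at 194 to 263 against 1 to 5. Of all tested genes 33.6% did not overlap.

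Further genes of varied function had large differences toward the GFP-positive cells. Cntnap5a, a neurexin-family adhesion gene (chromosome 1, 115684756 to 116587323), read 56, 70 and 62 in GFP-positive and 0 in all GFP-negative libraries, at least 60.4-fold higher against a floor of 3 reads over the group. Sox6, a transcription factor of the SoxD class, read 383, 280 and 307 against 4, 10 and 10 (5.25, adjusted p = 6.9e-08). Bean1, a membrane protein gene, read 1100, 1026 and 1264 against 23, 39 and 58 (4.88, adjusted p = 8.2e-08). All 3 were low in the unsorted cells as well, with Cntnap5a at 1 to 5, Sox6 at 14 to 42 and Bean1 at 36 to 129. Among these were 2 genes best known from muscle: the calcium store protein Casq2 read 393, 368 and 600 against 18, 13 and 18 (4.69), and the fast troponin I gene Tnni2 read 193, 133 and 115 against 8, 6 and 6 (4.25). Trpa1, an ion channel that senses irritants, read 51, 54 and 72 against 1, 2 and 3 (4.36). Spag5, a mitotic spindle protein, read 142, 107 and 138 against 4, 3 and 4 (4.80), and the homeobox gene Rhox5 read 245, 207 and 227 against 8, 10 and 13 (4.35). Lrrc55, an auxiliary subunit of potassium channels, read 264, 223 and 227 against 13, 4 and 9 (4.75).

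On the GFP-negative side, the largest differences beside the markers were those of Cntn1, Grem1, Ptger3, Lypd8 and Foxp2, among called genes with a group mean of at least 50 and libraries that did not overlap. Cntn1, a contactin, read 212, 224 and 199 in GFP-negative and 11, 1 and 14 in GFP-positive libraries (-4.90, adjusted p = 0.00063). Foxp2, a forkhead transcription factor, read 184, 184 and 236 in GFP-negative against 7, 8 and 18 in GFP-positive libraries (-4.18, adjusted p = 3.2e-07). Ptger3, a prostaglandin E2 receptor, read 16, 69 and 88 in GFP-negative against 2, 1 and 1 in GFP-positive libraries (-4.37, adjusted p = 9e-05), so the GFP-negative libraries themselves spread widely. Col8a1, a short-chain collagen, read 677, 503 and 673 in GFP-negative against 60, 33 and 47 in GFP-positive libraries (-3.73). Dner, a Notch-binding membrane protein, read 53, 39 and 59 in GFP-negative against 2, 4 and 3 in GFP-positive libraries (-3.69).

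Differences in absolute level were carried by other genes. Adamdec1, a secreted metalloprotease of the ADAM family, read 31790, 24785 and 37284 in GFP-positive and 9686, 9649 and 15415 in GFP-negative libraries (1.45, adjusted p = 0.00057). Lamb1, a laminin chain, read 19697, 17496 and 19341 against 6967, 8338 and 10089 (1.17). The cytoskeletal genes Tuba1a (0.88), Tmsb4x (0.98) and Mylk (1.67), the unnamed transcript Gm13889 (1.46) and Crispld2 (1.07) were also among the 8 largest gains in level; a further annotated gene overlaps Crispld2 on its own strand. In the other direction, Col3a1, a fibrillar collagen chain, read 28832, 22290 and 21997 in GFP-negative and 9456, 7274 and 9324 in GFP-positive libraries (-1.49), and Mgp, an inhibitor of calcification, read 13271, 16278 and 13257 against 1331, 1692 and 1785 (-3.16, adjusted p = 8.2e-08). Zfp36, an RNA-binding protein of the early stress response, was called lower (-1.20, adjusted p = 0.043) although its libraries overlapped: GFP-positive library 2 at 8459 was above GFP-negative library 1 at 7605.

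Gene lists of known function were then read, each by its counts and its median beside the background of 17.1% of genes called and the all-gene median of 0.01. From each list up to 4 called members with the largest differences are named with those that define it; any further member named was chosen after its values were seen. Some lists share members, some also hold markers of this contrast, and lists and members were chosen with earlier results of these data known. Of 379 called genes on these lists or named above, 107 lost the call in at least 1 of the fits that left out a library, all of them genes with an adjusted p of at least 0.0073.

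Markers of the fibroblast classes divided by sort. Of 18 telocyte markers 14 were higher, 1 lower and 3 did not pass, with a median of 2.57. This list counts Wif1 and Bmp3 again, which were given as markers of the contrast, so its count is not independent of them. Of 18 markers of Cd34-positive fibroblasts and trophocytes 1 was higher, 15 lower and 2 did not pass, with a median of -2.90. Foxl1, the forkhead factor that defines telocytes, read 247, 243 and 295 in GFP-positive and 16, 21 and 27 in GFP-negative libraries (3.58, adjusted p = 9.6e-08); another annotated gene overlaps it on its strand. Bmp7 read 944, 1160 and 1194 against 54, 81 and 80 (3.94). Frzb, a secreted Wnt inhibitor placed on the telocyte list, went the other way, at 256, 131 and 189 against 480, 738 and 794 (-1.82). Cd34, a sialomucin of the cell surface, read 235, 173 and 238 against 1300, 1299 and 1259 (-2.59, adjusted p = 1.7e-07), and the stem-like adventitial marker Pi16 read 24, 23 and 20 against 129, 365 and 218 (-3.23). The exception on the second list was Ly6c1, at 1068, 1310 and 1147 against 967, 780 and 578 (0.63, adjusted p = 0.046), a gene with a near-identical copy.

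General fibroblast genes were present in both sorts but mostly higher in GFP-negative cells: of 12 identity genes 1 was higher and 8 lower, with a median of -1.14. Thy1, a surface glycoprotein, read 178, 115 and 112 in GFP-negative and 19, 9 and 8 in GFP-positive libraries (-3.45). Pdgfra, the PDGF receptor that is highest in telocytes, was the 1 higher member, at 2955, 3049 and 3424 against 912, 1209 and 1212 (1.51). The collagen VI gene Col6a1 was not called, at 675, 804 and 661 against 968, 491 and 406 (0.30, adjusted p = 0.51). Its own transcript does not measure the promoter that directs Cre. Of the 6 collagen VI chains, Col6a4 read 382, 293 and 554 against 57, 56 and 73 (2.67) and Col6a2 read 1859, 2000 and 2015 against 1212, 858 and 860 (1.02). The other 4 chains did not pass.

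Contractile genes were tested on a list of 17, of which 9 were higher and 2 lower (median 0.57). Acta2, smooth muscle actin, read 1365, 1165 and 1696 in GFP-positive and 714, 424 and 407 in GFP-negative libraries (1.48), and Synpo2, an actin-bundling protein, read 151, 212 and 132 against 53, 49 and 46 (1.70). Among genes of mature smooth muscle, Myh11 read 90, 93 and 94 against 100, 90 and 99 and did not pass (-0.06, adjusted p = 0.87), and Cnn1 was lower, at 44, 15 and 40 against 82, 57 and 96 (-1.33, adjusted p = 0.023). Hhip, which binds Hedgehog ligands, was the other lower member (-1.72).

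More BMP and GDF ligands were called higher than lower in GFP-positive cells, and more BMP antagonists lower than higher. Of 13 genes on the BMP and GDF ligand list 7 were higher and 2 lower (median 0.78). This list also counts activin chains, and the given markers Bmp3 and Gdf10 again. Of 12 antagonists 3 were higher and 7 lower (median -1.24). Beside Bmp3 and Bmp7, Bmp2 (2.37) and Bmp5 (2.765) were higher, while Bmp4 (-0.18, adjusted p = 0.78) and Bmp6 (0.04, adjusted p = 0.93) did not pass. The activin chain Inhba, which is not a BMP, read 185, 305 and 232 in GFP-positive and 54, 81 and 37 in GFP-negative libraries (2.09). Grem1, the antagonist that marks trophocytes (chromosome 2, 113746164 to 113758646), read 223, 80 and 147 against 2914, 2690 and 3318 (-4.41, adjusted p = 1.1e-06). The higher antagonists were Nbl1, at 2143, 2061 and 2240 against 452, 621 and 606 (1.95), Twsg1 (1.89) and Htra1 (0.95). Among 14 receptors, transducers and targets 3 were higher and 4 lower, with a median of -0.07. Id1, a direct BMP target, read 3405, 5208 and 4353 against 682, 1064 and 714 (2.40, adjusted p = 2.1e-06), and Id2 (1.56) and the inhibitory Smad6 (0.90) were the other higher members. The targets Id3 (0.49) and Id4 (0.07) did not pass. The receptor Bmpr1a (-1.05), the transducer Smad1 (-1.07) and the feedback inhibitors Smad7 (-0.99) and Bambi (-0.93) were lower. The count of 4 lower members came to 2 when library 1 of either sort or library 3 of the GFP-positive sort was left out.

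Of 7 Wnt ligands 2 were higher and 3 lower. Wnt5a, the non-canonical ligand of telocytes, read 1227, 1190 and 1144 in GFP-positive and 96, 94 and 107 in GFP-negative libraries (3.57, adjusted p = 2e-08), with little spread in either sort. Wnt4 was also higher (0.93). The canonical ligand Wnt2b read 79, 88 and 79 against 160, 180 and 233 (-1.19), and Wnt2 and Wnt9a were lower too (-2.99 and -1.63). Of 7 secreted Wnt inhibitors 1, the marker Wif1, was higher and 5 were lower (median -1.54). Sfrp2 read 16, 12 and 9 against 153, 218 and 116 (-3.60), and an antisense gene over it, Gm26771, read 14, 11 and 8 against 148, 204 and 113 (-3.69); without a statement on strand their reads cannot be told apart. Rspo3, which amplifies Wnt signals at the crypt base, read 32, 11 and 11 against 170, 130 and 209 (-3.32), and Rspo2 was at 0 to 1 against 6 to 34 (-3.51).

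Growth factors for epithelium and nerve were split. Of 14 ligands on the FGF, HGF and IGF list 2 were higher and 7 lower (median -0.80). The list is not confined to these families: the count of 2 includes Gdnf, and Pdgfc is also of another family. The higher ones were Fgf9, at 326, 260 and 303 in GFP-positive and 20, 16 and 35 in GFP-negative libraries (3.66), and Gdnf, the trophic factor of enteric neurons, at 126, 134 and 81 against 20, 19 and 17 (2.51). Fgf10 read 85, 86 and 60 against 300, 180 and 171 (-1.45), and Fgf18 and Pdgfc were lower at low levels (-2.56 and -1.60). Of 6 EGF family ligands Nrg1 alone passed (1.76), and Ereg, at 2436, 3757 and 2655 against 2880, 2901 and 2342, did not. Of 5 IGF binding proteins 4 were lower, among them Igfbp6, at 9, 8 and 7 against 196, 126 and 112 (-3.98), and Igfbp4, at 2106, 2272 and 2708 against 11151, 11615 and 10928 (-2.26). Igfbp5 (-1.19) and Igfbp7 (-0.79), which overlaps Polr2b on the other strand, completed the group.

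Of 13 TGF-beta ligands, receptors and binding proteins 1 was higher and 6 lower (median -0.34). Tgfb3 read 14, 9 and 13 in GFP-positive and 91, 52 and 74 in GFP-negative libraries (-2.48), with Ttll5 overlapping it on the other strand, and the coreceptor Tgfbr3 read 188, 284 and 245 against 798, 940 and 886 (-1.88). Tgfbi, a matrix protein induced by TGF-beta, was higher (1.77). On the Hedgehog list of 12, 2 were higher and 5 lower. Ptch1, receptor and target of the pathway, read 388, 369 and 329 against 175, 173 and 156 (1.10) and Foxf2 read 173, 109 and 77 against 53, 37 and 34 (1.46). The coreceptors Cdon (-3.18), Gas1 (-3.07) and Boc (-1.44) were lower, with Gas1 at 11, 9 and 4 against 71, 75 and 64. Of 10 Notch pathway genes 2 were higher (Notch3, 1.67, and Nrarp, 1.10) and 2 lower (Dlk1, -2.90, and Notch1, -1.35).

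Transcription factors of gut mesenchyme were called on both sides. Of 34 tested 9 were higher and 15 lower, with a median of -0.46. After Sox6 and Foxl1, the T-box factors were the largest gains: Tbx3 read 328, 531 and 293 in GFP-positive and 62, 119 and 84 in GFP-negative libraries (2.11), and Tbx2 read 231, 259 and 300 against 87, 66 and 63 (1.86). Sox4 (1.62) and the gut homeobox factor Nkx2-3 (1.42) were also higher. After Foxp2, Hand2, a factor of visceral mesenchyme and enteric nerve development, read 4, 3 and 0 against 46, 27 and 29 (-3.65), and Osr1 read 21, 52 and 34 against 170, 274 and 208 (-2.64). The paired factors Meis1 (-1.26) and Meis2 (-1.57), Nr2f1 (-1.40) and Nr2f2 (-1.37), and Twist1 (-0.92) and Twist2 (-1.13) were all lower. Foxf1, the Hedgehog-responsive forkhead factor, read 883, 1235 and 1042 against 752, 835 and 669 and did not pass (0.48, adjusted p = 0.092).

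Hox genes, which record position along the body, were called in both directions. Of 22 tested 6 were higher, 5 lower and 11 did not pass. All 4 tested genes of the HoxB cluster were lower: Hoxb2 read 14, 19 and 16 in GFP-positive and 44, 85 and 95 in GFP-negative libraries (-2.06, adjusted p = 0.00028), and Hoxb4 read 13, 11 and 20 against 80, 60 and 117 (-2.46). Hoxb3 (-2.37) and Hoxb5 (-2.97, adjusted p = 0.02) had the same sign. Of 8 tested HoxA genes 4 were higher and none of the others passed; Hoxa11 read 668, 703 and 580 against 138, 225 and 296 (1.62), with an antisense gene on the other strand, and Hoxa9 read 331, 273 and 388 against 175, 149 and 161 (1.02). Of 4 HoxC genes Hoxc9 was higher (1.41). The HoxD genes were mixed: Hoxd13, the most distal of its cluster, read 8, 7 and 7 against 35, 57 and 58 (-2.58). Hoxd4 was higher (1.84), while 4 others did not pass. Hoxd4 overlaps Gm28230, also called higher, and Hoxd3 on its own strand and Hoxd3os1 on the other, so its reads may not be its own alone. The HoxB genes are neighbours on chromosome 11, with Hoxb5 at 96303336 to 96306121 and Hoxb2 at 96350525 to 96354012 on mm10.

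**Figure D3:**
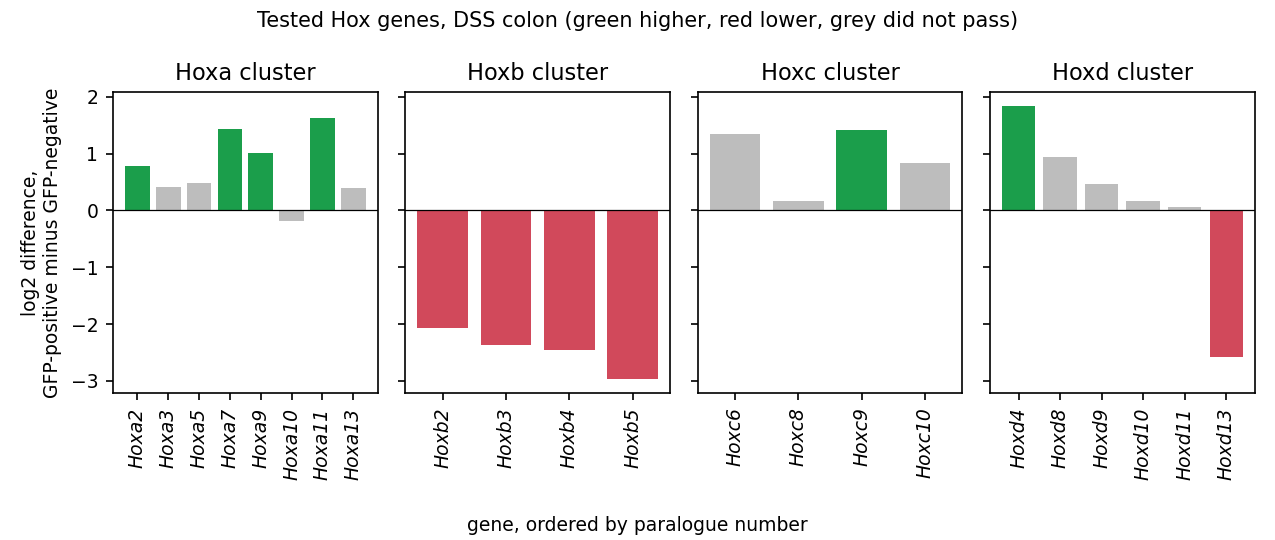
Log2 difference of GFP-positive minus GFP-negative cells (y axis, bars from 0) for each tested Hox gene of the DSS colon in order of paralog number (x axis), in a panel per cluster, with genes that did not pass in grey. The 4 HoxB bars reach from -2.06 to -2.97, and the 8 HoxA bars lie between -0.18 and 1.62.

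Matrix genes were called on both sides. Of 17 collagens 6 were higher and 6 lower. The fibrillar chains Col3a1, Col1a1 (-1.03) and Col1a2 (-0.78) and the fibril-associated Col14a1, at 302, 165 and 269 in GFP-positive and 2573, 1782 and 1953 in GFP-negative libraries (-3.12), were lower. Col12a1 read 691, 691 and 627 against 250, 225 and 146 (1.72), and the fibrillar chains Col5a3 (0.89) and Col27a1 (0.74) were higher as well. Col13a1 and the fibrillar Col24a1, both low, were also higher (1.96 and 2.42). Of 16 basement membrane genes 7 were higher and 2 lower (median 0.17). Col4a5 read 248, 243 and 269 against 39, 17 and 32 (3.14) and Col4a6, its neighbour on the X chromosome, 153, 194 and 163 against 18, 21 and 10 (3.35). Col4a2, by contrast, was lower, at 895, 1026 and 921 against 2199, 1718 and 1338 (-0.86), and so was the laminin chain Lamb2 (-0.96).

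The elastic fibre list of 18 held 2 higher and 9 lower genes (median -0.89). Eln, the elastin precursor, read 661, 507 and 401 in GFP-positive and 3930, 3141 and 2589 in GFP-negative libraries (-2.63, adjusted p = 7.5e-07). The microfibril genes Fbn1 (-1.52) and Mfap5 (-3.13), the fibulins Fbln1 (-1.86) and Fbln2 (-2.16) and the crosslinking enzymes Lox (-1.77) and Loxl1 (-1.42) were lower with it. Fbn2, another fibrillin, was the opposite, at 199, 151 and 172 against 25, 18 and 22 (2.95, adjusted p = 4.2e-07), and Loxl4 was higher at a low level (1.13). Of 10 small proteoglycans and collagen enhancers 6 were lower, among them Pcolce2 (-2.97), Lum (-2.00) and Dcn (-1.97), and Ogn was higher, at 985, 747 and 716 against 387, 285 and 266 (1.39). The 6 lower members came to 3 when library 3 of the GFP-negative or library 2 of the GFP-positive sort was left out.

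Among 21 metalloproteinases and inhibitors 6 were higher and 6 lower (median -0.00), a mixed list. Mmp10, a stromelysin, read 943, 799 and 954 in GFP-positive and 120, 91 and 107 in GFP-negative libraries (3.08, adjusted p = 6.9e-08), and the collagenase Mmp13 read 471, 356 and 678 against 98, 122 and 175 (1.91). Mmp9 was higher too (2.77); neutrophils also make it. The inhibitors were divided, with Timp1 at 113, 58 and 62 against 499, 234 and 317 (-2.15), Timp2 lower (-0.63) and Timp3 higher (1.24).

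Regulators of clotting and fibrinolysis, 17 in all, held 6 higher and 7 lower genes. The higher ones were receptors and activators: Procr, the endothelial protein C receptor also known as CD201, read 5478, 5462 and 5215 in GFP-positive and 519, 792 and 712 in GFP-negative libraries (3.02, adjusted p = 9.2e-08). Plau, the urokinase plasminogen activator, read 409, 597 and 484 against 69, 133 and 96 (2.34), and tissue factor F3 (2.09), thrombomodulin Thbd (1.61) and the thrombin receptor F2r (1.45) were higher, as was F2rl1 (1.97). The lower ones were mostly serpins and other inhibitors: Serpine2, which blocks thrombin and plasminogen activators, read 269, 299 and 236 against 1234, 1343 and 1647 (-2.38), Serpinf1, a serpin that restrains vessel growth, read 24, 16 and 26 against 121, 109 and 127 (-2.41), and Tfpi2 (-2.25) and Serping1 (-0.82) were lower. The urokinase receptor Plaur was also lower (-0.67), as was Thbs1 (-1.29).

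The vessel growth factors were split. Vegfa, the main blood vessel factor, read 1132, 1292 and 901 in GFP-positive and 352, 472 and 355 in GFP-negative libraries (1.49, adjusted p = 6.9e-05), and Angpt1 was higher (0.77). The lymphatic factors were lower: Vegfd read 32, 48 and 28 against 161, 231 and 243 (-2.54) and Vegfc read 32, 16 and 16 against 95, 60 and 95 (-1.96). Of the 14 genes of this list 3 were higher and 5 lower.

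Guidance genes of the semaphorin, netrin and slit families numbered 21, with 4 higher and 10 lower (median -0.87). Sema3f, a secreted semaphorin, read 408, 418 and 522 in GFP-positive and 64, 68 and 87 in GFP-negative libraries (2.61), and the netrin receptor Unc5b read 638, 731 and 690 against 117, 175 and 140 (2.26). Sema6a (1.14) and the receptor Nrp2 (0.62) were the other higher members. The ligands Slit2, at 2, 8 and 6 against 66, 72 and 100 (-3.78), and Slit3, at 71, 53 and 57 against 378, 376 and 343 (-2.59), were lower, with Ntn1 (-1.27) and Ntn4 (-2.36), while Sema3b, Sema3c and Sema3d fell on the same side (-2.02, -1.25 and -1.61).

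Receptors for vasoactive signals were called equally often on either side. Of 18 tested 7 were higher and 7 lower (median -0.04). Both endothelin receptors were higher in GFP-positive libraries, Ednrb at 509, 499 and 709 against 29, 40 and 55 (3.79) and Ednra at 570, 617 and 756 against 261, 237 and 188 (1.50). The angiotensin receptor Agtr1a was lower, at 17, 12 and 12 against 81, 45 and 68 (-2.14). Among prostaglandin receptors, Ptger2 read 141, 153 and 116 against 51, 50 and 24 (1.76), while Ptger3, Ptgfr (-2.45) and Ptgir (-1.50) were lower. Tacr1, the substance P receptor, was higher at a low level (2.26). Of 8 prostaglandin synthesis genes Ptgs1 (1.19) and Hpgd (1.33) were higher, and the inducible cyclooxygenase Ptgs2, at 2132, 2641 and 1894 against 2055, 1862 and 1654, did not pass (0.25, adjusted p = 0.40).

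The retinoid list of 13 had 3 higher and 2 lower genes. Aldh1a1, which makes retinoic acid, read 399, 311 and 427 in GFP-positive and 72, 78 and 80 in GFP-negative libraries (2.28, adjusted p = 7.3e-07), and the retinol carrier Rbp4 read 182, 165 and 184 against 49, 35 and 40 (2.08). Rdh10, which acts a step earlier in that synthesis, was higher (1.02). Aldh1a3, another enzyme that makes retinoic acid, read 81, 94 and 109 against 312, 385 and 329 (-1.85). Each of these 4 called genes had libraries that did not overlap, as did 33.6% of all tested genes.

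Complement genes were mostly lower in GFP-positive cells. Of 17 complement and acute-phase genes 1 was higher and 12 lower, with a median of -2.06. C3, the central complement protein, read 1598, 1551 and 1401 in GFP-positive and 11433, 15203 and 11921 in GFP-negative libraries (-3.07, adjusted p = 8.2e-08). Cd55, which protects host cells from complement, read 38, 25 and 43 against 423, 277 and 292 (-3.20), and the pattern recognition protein Ptx3 read 128, 174 and 137 against 1028, 1460 and 1134 (-3.03). The classical pathway gene C4b (-2.15) and the alternative pathway gene Cfb (-1.61) were lower; a further annotated gene overlaps Cfb and C2 on their strand. The 1 higher member was the receptor C5ar1, at 21, 20 and 19 against 3, 1 and 6 (2.46), with unsorted cells at 75 to 105.

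Of 19 chemokines 2 were higher and 6 lower (median -0.50), and of 30 cytokines and receptors 4 were higher and 11 lower (median -0.52). Ccl11, which attracts eosinophils, read 354, 249 and 371 in GFP-positive and 2198, 1341 and 1512 in GFP-negative libraries (-2.36). Ccl2, which attracts monocytes, read 1968, 3256 and 1745 against 9720, 9171 and 5050 (-1.78), and Ccl7 (-1.61) and Ccl21a (-2.84), which has near-identical copies, were lower with it. Cxcl14 (1.27) and Ccl8 (0.85) were the higher chemokines. Il33, an alarmin, read 58, 28 and 55 against 340, 400 and 593 (-3.24), whereas its receptor Il1rl1 read 219, 253 and 277 against 41, 43 and 37 (2.60, adjusted p = 3.6e-07). The IL-6 family ligands Il6, at 445, 321 and 413 against 2439, 1817 and 1683 (-2.32, adjusted p = 1e-06), Lif, at 44, 64 and 34 against 387, 440 and 369 (-3.09), and Il11 (-0.78) were lower, and so was their shared receptor chain Il6st (-1.06). Il34, a ligand of the CSF1 receptor, was higher at 1170, 1213 and 1453 against 246, 217 and 221 (2.48), and Csf1, the other ligand, did not pass (-0.17).

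Unlike Ccl2, the abundant chemokines Cxcl1 and Cxcl12 did not pass. Cxcl1 read 8264, 12123 and 3790 in GFP-positive and 9383, 14297 and 9060 in GFP-negative libraries (-0.56, adjusted p = 0.34), and Cxcl12 read 5357, 5265 and 5871 against 4156, 6550 and 6422 (-0.03, adjusted p = 0.95). The libraries of the sorts overlapped for both. Of 17 genes of leukocyte contact and NF-kB feedback 3 were higher and 4 lower; the lower count was 7 without GFP-negative library 3 and 2 without GFP-positive library 3. Tnfaip6 read 416, 330 and 355 against 4450, 3309 and 2368 (-3.16), the adhesion molecule Vcam1 read 1167, 1319 and 896 against 4506, 5503 and 3755 (-2.02), and Cd274, the checkpoint ligand PD-L1, was higher at 352, 292 and 229 against 102, 106 and 141 (1.31).

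The promoter of Il6 is shown because it is a long-known target of NF-kB and was among the cytokines lower in GFP-positive cells. The sequence is the 250 bases before the gene on the plus strand, chr5:30012864-30013113, from RefSeq (GRCm38.p6), read 5′ to 3′, with a match to the kappaB consensus in capitals that begins 44 bases before the start:
Il6: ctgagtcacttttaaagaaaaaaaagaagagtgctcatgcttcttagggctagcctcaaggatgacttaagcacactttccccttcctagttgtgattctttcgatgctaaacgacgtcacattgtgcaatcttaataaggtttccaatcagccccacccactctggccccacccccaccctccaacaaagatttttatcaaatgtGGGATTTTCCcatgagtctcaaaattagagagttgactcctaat
Only the form of the consensus in capitals was searched, with 1 base of it left free and every other base fixed. On both strands of the 250 bases before the start, this form was in 117 of 32851 RefSeq promoters (0.356%). It was in 43 of 9079 matched tested genes (0.474%). Promoters that hold other forms of the kappaB consensus were not counted. Of 33 genes called lower on the chemokine, cytokine, leukocyte contact and complement lists, 17 had a promoter in the table and 1, Il6, held this form. A match is a description of these letters only.

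Interferon and antigen presentation genes had a share of calls at or below the background of 17.1%. Of 31 interferon-stimulated genes 1 was higher, 4 lower and 26 did not pass (median -0.15), and the lower count was 2 without GFP-positive library 3. Oas2, a double-stranded RNA sensor, read 4, 7 and 6 in GFP-positive and 53, 39 and 34 in GFP-negative libraries (-2.69, adjusted p = 9.7e-05), with Ifi204 (-1.55), Isg20 (-1.28) and Isg15 (-0.73) also lower. Ifit2 was the opposite, at 91, 77 and 87 against 31, 15 and 33 (1.73). Of 14 genes of MHC class I presentation 0 passed in limma, with 2 higher and 3 lower at an unadjusted p under 0.05 and 0 in the authors' deposited table. Their differences lay between -0.71 (B2m) and 0.57 (H2-T23).

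Mitotic genes were mostly called on the GFP-positive side. Of 34 cell cycle genes 19 were higher, 3 lower and 12 did not pass, with a median of 0.81. The 19 came to 10 without GFP-positive library 1 and 11 without GFP-positive library 3. Plk1, a mitotic kinase, read 89, 61 and 91 in GFP-positive and 10, 20 and 21 in GFP-negative libraries (2.22, adjusted p = 0.00014), Top2a, a DNA topoisomerase, read 169, 93 and 150 against 41, 37 and 46 (1.67), and Cdk1, the kinase that starts mitosis, read 72, 69 and 78 against 18, 12 and 31 (1.89). Ccnd1, the G1 cyclin, read 996, 653 and 621 against 224, 135 and 168 (2.10). It overlaps Oraov1 on the other strand. The proliferation marker Mki67 was low, at 16, 9 and 19 against 2, 5 and 7, and did not pass (1.52, adjusted p = 0.064). The 3 lower members were the inhibitors Cdkn1c (-1.88) and Cdkn1a, at 375, 264 and 198 against 647, 793 and 714 (-1.41), and the cyclin Ccnd2 (-0.63). Unsorted cells exceeded both sorts for several of the higher genes, as for Top2a at 338, 205 and 259.

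Promoters of mitotic genes often carry the cell cycle genes homology region, TTTGAA, and Cdk1 and Cdc20 are shown as called members that hold it. Both sequences are from RefSeq (GRCm38.p6), on the minus strand, 5′ to 3′, and end directly before the gene's first base in the deposited table. They have the motif in capitals, 71 bases before the RefSeq start in Cdk1 (chr10:69352939-69353162) and 18 before it in Cdc20 (chr4:118437353-118437593):
Cdk1: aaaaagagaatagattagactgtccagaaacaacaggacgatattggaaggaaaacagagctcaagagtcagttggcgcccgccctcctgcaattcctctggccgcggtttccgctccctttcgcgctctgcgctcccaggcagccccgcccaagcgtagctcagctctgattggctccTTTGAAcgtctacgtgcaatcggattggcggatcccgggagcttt
Cdc20: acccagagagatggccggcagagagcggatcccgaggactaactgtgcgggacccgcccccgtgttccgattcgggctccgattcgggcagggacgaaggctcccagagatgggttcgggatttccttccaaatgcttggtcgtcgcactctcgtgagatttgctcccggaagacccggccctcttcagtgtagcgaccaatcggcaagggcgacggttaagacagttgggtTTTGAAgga
On either strand of the 250 bases before the start, the motif was in 5252 of 32851 promoters (16.0%) and in 1131 of 9079 matched tested genes (12.5%). Of the 19 higher cell cycle genes 13 had a promoter in the table and 5 held it: Top2a, Cdk1, Kif11, Ube2c and Cdc20. Cdc20 read 350, 287 and 309 in GFP-positive and 185, 161 and 198 in GFP-negative libraries (0.80, adjusted p = 0.0057), and Elovl1 overlaps it on the other strand. The motif is short and its presence says nothing of which factor acts there.

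**Figure D4:**
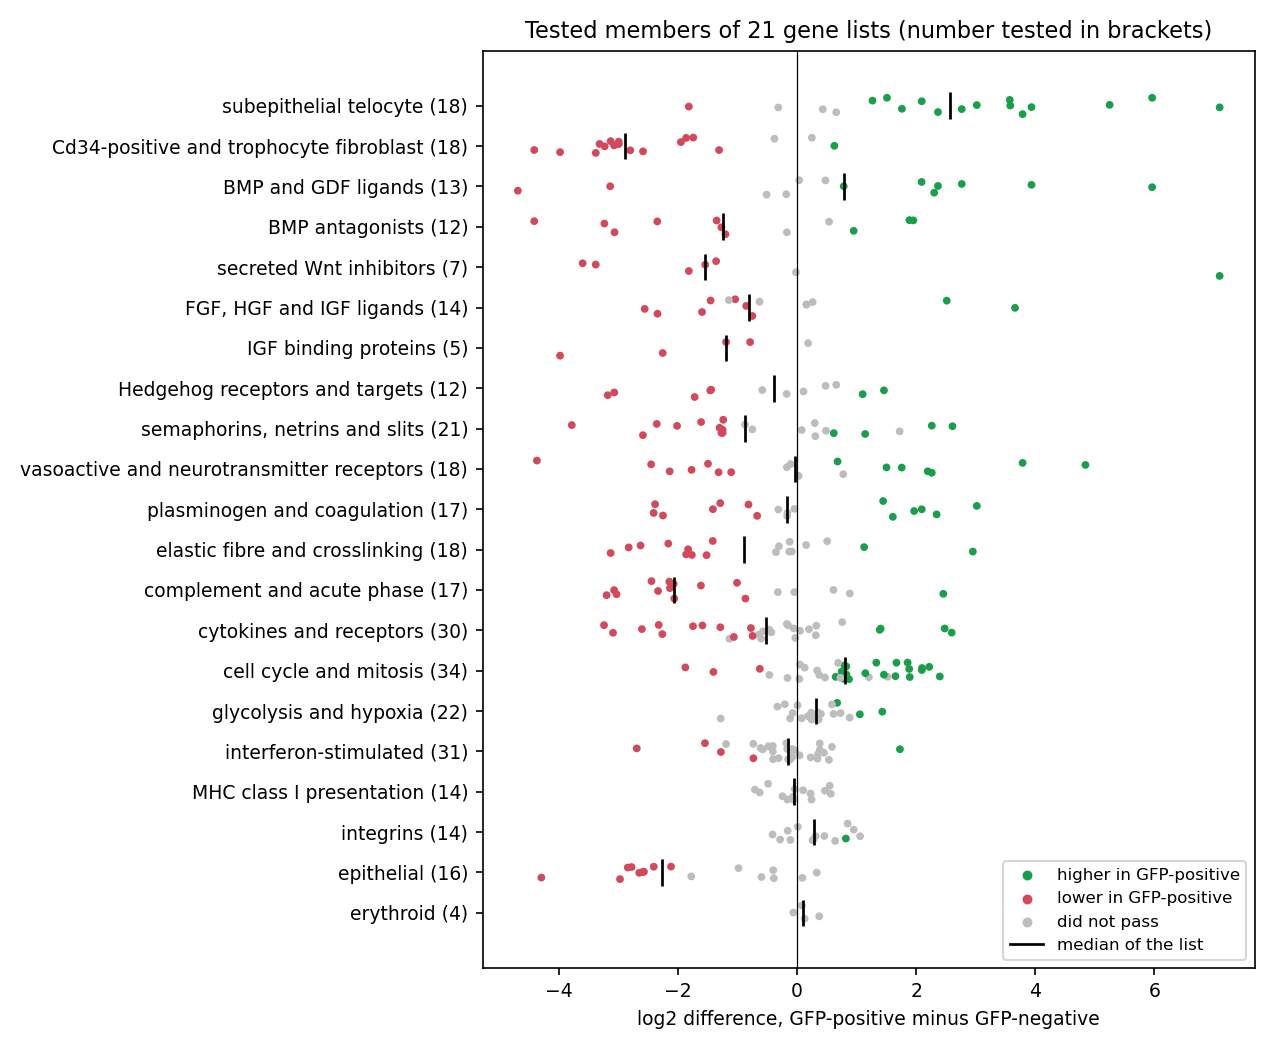
Log2 difference of GFP-positive minus GFP-negative cells (x axis) of each tested member (points) of gene lists (rows), coloured by call, with a line at each list's median. The medians of telocyte markers (2.57) and cell cycle genes (0.81) lie to the right of 0, those of complement genes (-2.06) and Cd34-positive fibroblast markers (-2.90) to the left, and that of MHC class I genes at -0.05.

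The integrin list had few calls and the cadherin list many. Of 14 integrins Itga1 alone passed (0.82, adjusted p = 0.044), and it shares a strand and an overlap with Pelo. Of 16 cadherins and other adhesion genes 3 were higher and 7 lower; the higher count, with Cdh11 (0.75), Mcam (0.75) and Alcam (0.68), came to 0 when library 2 of either sort was left out, and to 1 without GFP-negative library 3 or without GFP-positive library 1. Edil3, an integrin-binding matrix protein, read 109, 72 and 66 in GFP-negative and 9, 3 and 15 in GFP-positive libraries (-3.24). Of 22 glycolysis and hypoxia genes 3 were higher (Pfkfb3, 1.43; Tpi1, 1.05; Pkm, 0.67) and 19 did not pass, which is near the background of 17.1%; the higher count was 5 without GFP-negative library 1. Pfkfb3, a regulator of glycolytic flux, read 446, 728 and 386 against 148, 240 and 178.

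The share of calls on the stress lists was near the background of 17.1%. Of 24 immediate early and heat shock genes 4 were lower, Zfp36, Nr4a1 (-0.76), Fos (-0.75) and Dnajb1 (-0.70), with Fos at 2422, 2351 and 1845 in GFP-positive and 4068, 3691 and 3310 in GFP-negative libraries. This count came to 1 without GFP-negative library 2, 2 without GFP-positive library 1 and 0 without GFP-positive library 3. Of 18 unfolded protein response genes 3 were lower (Manf, -0.74; Ddit3, -0.67; Herpud1, -0.59), and 1 or 0 remained below the threshold when GFP-negative library 2 or any GFP-positive library was left out.

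Markers of other cell types were read in the same way, and their part in the results above was not tested. Of 16 tested epithelial markers 9 were lower and 7 did not pass. Their summed level was 221 to 264 normalised counts in GFP-positive, 443 to 1369 in GFP-negative and 7896 to 14064 in unsorted libraries. Epcam read 7, 8 and 3 against 13, 30 and 98, and Lypd8, a colonocyte gene, read 3, 0 and 4 against 42, 36 and 94 (-4.29). GFP-negative library 3 was the highest for both, and without it 3 markers were lower. Of 14 immune markers 3 were lower, the plasma cell genes Jchain and Mzb1 (-3.14 and -2.49) and the neutrophil gene S100a9 (-1.55), and 11 did not pass. The immune sum was 323 to 837 in GFP-positive, 776 to 1328 in GFP-negative and 20537 to 28418 in unsorted libraries. Leaving out library 3 of either sort or library 2 of the GFP-positive sort gave 1 lower marker, and leaving out GFP-positive library 1 gave 5.

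The summed level of endothelial markers overlapped between the sorts, and that of pericyte markers was higher in every GFP-positive library. Of 10 endothelial markers 1 was higher and 4 lower, and their sum was 778 to 807 in GFP-positive, 602 to 886 in GFP-negative and 3637 to 3864 in unsorted libraries. Leaving out library 2 of either sort or library 3 of the GFP-negative sort gave 1 lower marker, and leaving out GFP-positive library 1 or 3 gave 2. Of 13 pericyte markers 7 were higher and 1 lower (median 0.64). Their sum was 2804 to 3477 in GFP-positive, 1715 to 2332 in GFP-negative and 3031 to 3969 in unsorted libraries. Cspg4, the NG2 proteoglycan, read 74, 92 and 66 against 20, 18 and 27 (1.79), Kcnj8 read 155, 173 and 169 against 69, 52 and 69 (1.38), and Rgs5 read 1307, 1202 and 898 against 456, 451 and 891 (0.98, adjusted p = 0.016). The 7 came to 4 without GFP-negative library 2 and 3 without GFP-positive library 2. Kit, the receptor that defines interstitial cells of Cajal, was at 2, 0 and 2 against 37, 10 and 37 (-3.60). Kit was the 1 lower member of its list, whose 4 tested genes, Kit included, had a median of 0.91. Gja1 (1.545, adjusted p = 2.8e-05) and Etv1 (1.146, adjusted p = 0.0016) were called toward the GFP-positive cells. Ano1 (0.67, adjusted p = 0.29) missed the threshold.

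The mesothelial, glial and neuronal, adipocyte and haemoglobin lists held only lower or uncalled genes. Of 4 mesothelial markers 3 were lower, with a sum of 23 to 45 against 81 to 138, and 1 marker of the list was at 0 in every GFP-positive library. Of 7 glial and neuronal markers Uchl1 (-2.38) and Elavl4 (-2.25) were lower, and the sum was 102 to 158 against 184 to 280. Of 3 adipocyte markers Pparg was lower (-2.32). Of 4 haemoglobin genes 0 passed in limma, 0 at an unadjusted p under 0.05 and 0 in the authors' deposited table, and the sum was 76 to 121 against 62 to 119.

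The same contrast in the normal colon called 798 of 13346 genes (5.98%). Of the 5 given markers 2 were higher and 2 lower there, and Hrh1 did not pass in limma (3.09, adjusted p = 0.075). Of the 18 telocyte markers 15 were higher and 1 lower, and of the 18 Cd34-positive and trophocyte markers 0 and 14. Of the 34 cell cycle genes 3 were higher and 0 lower. Counts of calls do not test whether the contrasts differ. The difference between the contrasts, DSS minus normal, was tested with limma for 13488 genes on a scale that the 12 sorted libraries share. It passed for 7 genes (0.0519%), with 1081 at an unadjusted p under 0.05. Without GFP-negative library 3 of the DSS colon 2 passed, and without GFP-negative library 1 of the normal colon 15 did. Leaving out GFP-positive library 1 of the DSS colon or GFP-positive library 3 of the normal colon left 3, and leaving out any other GFP-positive or GFP-negative library of the DSS colon left 4. Over 20 other settings, left-out libraries included, the call was kept in 20 for Gdpd2 and Syn3, 19 for Timp3, 14 for Alcam, 11 for Alpl, 9 for Sfrp1 and 8 for Fgf7. Values in the rest of this account are normalised counts on the common scale.

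Timp3, an inhibitor of metalloproteinases (chromosome 10, 86300372 to 86349506, plus strand), reversed. In the DSS colon it read 7129, 6682 and 7498 in GFP-positive and 3852, 2711 and 2650 in GFP-negative libraries, and in the normal colon 1131, 1034 and 1114 against 2655, 2260 and 1988. The contrasts were 1.23 and -1.06, a difference of 2.29 (adjusted p = 0.0069). Syn3, a synapsin gene that spans Timp3 on the minus strand (86055125 to 86498896), read 1044, 909 and 877 against 396, 279 and 297 in DSS and 154, 157 and 82 against 331, 313 and 358 in normal colon. Its contrasts were 1.55 and -1.40, a difference of 2.95 (adjusted p = 0.0027). Reads of the pair cannot be told apart without a statement on strand.

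The other 5 genes had a lower contrast in DSS. Fgf7, an epithelial growth factor, read 19, 42 and 30 in GFP-positive and 163, 158 and 140 in GFP-negative DSS libraries, and 61, 38 and 68 against 56, 57 and 39 in the normal colon, so the libraries overlapped only without DSS (difference -2.48, adjusted p = 0.046). Alpl, tissue-nonspecific alkaline phosphatase, read 294, 270 and 316 against 772, 1435 and 1397 in DSS and 81, 80 and 75 against 67, 80 and 47 in normal colon (-2.29, adjusted p = 0.021). Sfrp1, a Wnt inhibitor, was lower in GFP-positive cells of both, at 740, 786 and 826 against 8886, 7666 and 8080 in DSS and 699, 621 and 1098 against 1818, 2400 and 2044 in normal colon (-1.98, adjusted p = 0.042). The adhesion molecule Alcam was higher in GFP-positive cells of both. It read 88, 92 and 113 against 69, 56 and 58 in DSS and 167, 158 and 196 against 21, 27 and 25 in normal colon (-2.12, adjusted p = 0.015). Gdpd2, a phosphodiesterase gene, read 22, 21 and 31 against 2, 0 and 0 in normal colon and 30, 33 and 54 against 47, 95 and 46 in DSS (-4.77, adjusted p = 0.0069).

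**Figure D5:**
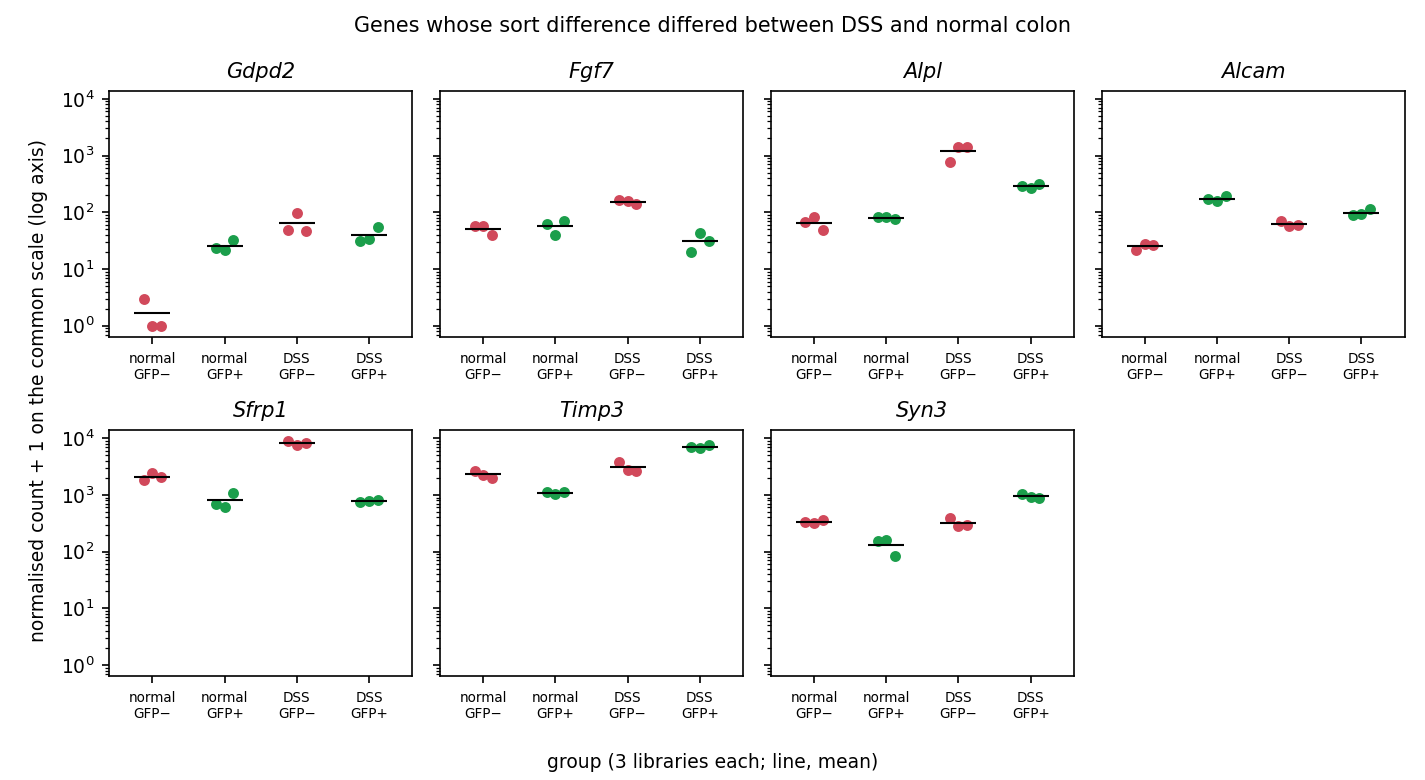
Normalised counts on the common scale (y axis, log scale of value + 1) of the 7 genes whose sort contrast differed between DSS and normal colon, by group (x axis), with each library as a point and lines at the means. Timp3 and Syn3 are higher in the GFP-positive libraries of the DSS colon and lower in those of the normal colon, while Fgf7 and Alpl are split in the DSS colon.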

How the data were processed

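RNA of freshly isolated, sorted mesenchymal cells was made into 3′ libraries with the QuantSeq kit and sequenced on an Ion Proton, per the labels' protocols. The submitters' processing notes name TopHat2, Bowtie2, DESeq and the build mm10; versions, annotation and the strand of counting were not given in the sources used here. The deposited scores are normalised counts by their headers, and hold whole numbers only, which implies rounding by the authors; the authors also deposited p-values with a false discovery rate and log2 fold changes of group means. Whole reads could not be recovered, so limma 3.58.1 (R 4.3.3, trend and robust) was used on log2(value + 1) in place of a count test, with a minimum group mean of 10 normalised counts, with Benjamini-Hochberg adjustment. Only the 2 groups compared entered the fit, and the difference from normal colon was fitted on 12 libraries. Reads per library were estimated from the spacing of the values, and with 3 libraries a group the precision is that of their spread. Same-numbered libraries were checked for pairing and were treated as unpaired. The fit was tested on simulated data. Named genes were the 5 given markers, the 12 largest differences each way among called genes with a group mean of at least 50 and libraries that did not overlap, the 8 largest changes of level each way, up to 4 called members of each of 53 lists with the defining members, and the genes of the difference test. The members and lists were chosen with earlier results of these data known. Alternatives covered pseudocount, filter, scaling, variance trend, replicate block, left-out libraries, a fold threshold and a fit with unsorted cells. The values of some members of the lists, which the counts include, are not reported here.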

Additional observations from a re-analysis of the deposited data

Results flagged for a closer look

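For 7 genes the GFP contrast differed between the DSS and the normal colon by limma's test of the difference itself, adjusted over all genes tested, with 3 libraries in each of the 4 groups. The difference (log2, DSS contrast minus normal contrast) was -4.767 for Gdpd2, -2.481 for Fgf7, -2.29 for Alpl, -2.119 for Alcam and -1.978 for Sfrp1. It was 2.294 for Timp3 and 2.953 for Syn3, a pair of overlapping genes on opposite strands. In the normal colon Gdpd2 was near 0 in the GFP-negative libraries, at 2, 0 and 0, and with 5 in place of 1 added before the logarithm its difference was -2.98 (adjusted p = 0.017).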

How the results depend on the processing

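The number of called genes in the DSS colon was 1630 to 2402 over the settings of pseudocount, filter, scaling, variance trend, replicate block and added unsorted cells, against 2152. Leaving out 1 library gave 1431 to 2040 genes, 608 to 1009 higher and 823 to 1031 lower. Requiring a log2 difference of at least 1 left 1364 genes, 596 of them higher, by construction, and the authors' deposited table had 308 (100 higher and 208 lower); the cause of that difference was not tested. The difference between DSS and normal colon passed for 7 genes, for 11 with a pseudocount of 5 (9 lower), and for 2 to 15 when 1 library was left out (1 to 4 higher and 1 to 11 lower). Same-numbered libraries of the sorts correlated at 0.03, 0.162 and 0.04 in their deviations, and not every library correlated best with its own number, so the number was not taken as a pairing; with a replicate block 2402 genes passed, and the difference test passed for 4 (2 lower). No gene called on the lists or named by the rules changed sign in these fits. The larger side of the calls (1033 higher and 1119 lower) turned with equal totals (1203 and 920), with a mean of at least 50 (845 and 829) and without GFP-negative library 3 (1008 and 960).

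Of the genes in the first 3 naming rules and the difference test, Alcam, Zfp36, Crispld2 and Tuba1a lost the sort call in at least 1 of these fits, Gdpd2 never had it, and the others kept it in each fit that tested them. Tmsb4x was also under a log2 difference of 1. In the authors' deposited table the false discovery rate was above 0.05 for Col3a1, Dcn, Sparc, Igfbp4, Tnfaip2, Zfp36, Adamdec1, Lamb1, Gm13889, Tuba1a, Tmsb4x, Mylk, Crispld2, Alcam, Timp3 and Syn3. The named list members that lost it when 1 library was left out were Angpt1, Bambi, Ccl8, Ccnd2, Cdh11, Cnn1, Col1a2, Col24a1, Col27a1, Ddit3, Dlk1, Dnajb1, Elavl4, Epcam, Fgf18, Fos, Herpud1, Hoxb5, Hoxc9, Hpgd, Igfbp7, Il11, Isg15, Isg20, Itga1, Jchain, Kif11, Loxl4, Ly6c1, Manf, Mcam, Notch3, Nr4a1, Nrarp, Nrp2, Pdgfc, Pkm, Plaur, Pparg, Rgs5, S100a9, Sema3d, Smad6, Smad7, Timp2, Twist1 and Ube2c. With a mean of at least 50 required, 3 epithelial and 0 mesothelial markers were lower, since fewer were tested. The planned count test was not run, because whole reads could not be recovered.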
